A study of Homo sapiens with 12 samples.

Results

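The genes described here are 10 human genes of the G1 phase of the cell cycle: the CDK inhibitors CDKN1A and CDKN1B, the D-type cyclins CCND1, CCND2 and CCND3, the kinases CDK4 and CDK6, the E-type cyclins CCNE1 and CCNE2, and RB1. They were chosen by gene symbol, with earlier results of these data known, and all 10 were among the 13869 genes of the deposited table. RNA was sequenced from OVSAHO, labelled as a high grade serous ovarian cancer line, and from MDAH-2774, labelled as an endometrioid ovarian cancer line. In each line, 3 libraries came from cells exposed to 500 nM lestaurtinib for 24 h and 3 from cells given DMSO vehicle for the same time. All cells carry the genotype label WT and were kept in phenol red-free RPMI medium with serum and antibiotic, so each tumour type stands on 1 established line, 1 dose and 1 time. Lestaurtinib is a small-molecule kinase inhibitor whose known targets include JAK2 and FLT3. The comparisons asked how the compound changed these genes in each line, whether the change differed between lines, and how the lines differed under vehicle.

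In G1, D-type cyclins bind CDK4 or CDK6 and the resulting kinases phosphorylate the RB protein, which releases E2F transcription factors. E2F then drives genes for DNA replication together with the E-type cyclins, which activate CDK2. The proteins p21 (from CDKN1A) and p27 (from CDKN1B) bind these kinases, inhibit CDK2 and also take part in the assembly of cyclin D kinases, and CDKN1A is a standard target gene of p53. Much of the control of these regulators acts on the protein (phosphorylation, degradation), which RNA levels do not record.

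Total counts ran from 44016325 to 48408796 in lestaurtinib MDAH-2774 libraries, 36547466 to 44595957 in vehicle MDAH-2774, 32875940 to 41768581 in lestaurtinib OVSAHO and 40039225 to 55941446 in vehicle OVSAHO. Levels are given as CPM (counts scaled to TMM-adjusted library sizes) for 1 gene between samples and as RPKM (reads scaled by gene length and library) between genes. Changes are log2 fold changes with their standard error (SE) from 1 edgeR quasi-likelihood fit, called at a Benjamini-Hochberg adjusted p under 0.05 over 13498 tested genes. In bulk RNA, fewer cells making a transcript and less transcript per cell cannot be told apart. Whether the libraries of a group stem from separate cultures is not in the labels, and the p-values speak only for the spread among these libraries, and that spread may be technical. Of 8 epithelial and ovarian markers, 7 were measured, with EPCAM at 104, 89.7, 41.7 and 39.5 CPM and PAX8 at 184, 305, 235 and 274 CPM on average in lestaurtinib MDAH-2774, vehicle MDAH-2774, lestaurtinib OVSAHO and vehicle OVSAHO libraries. WT1 averaged 17.3 CPM in lestaurtinib and 21.2 CPM in vehicle MDAH-2774, and 60.5 CPM in lestaurtinib and 87.6 CPM in vehicle OVSAHO. The keratins went different ways in the lines: KRT18 averaged 606 CPM with lestaurtinib and 677 CPM with vehicle in MDAH-2774, and 697 CPM with lestaurtinib and 330 CPM with vehicle in OVSAHO. KRT8 averaged 835 CPM with lestaurtinib and 971 CPM with vehicle in MDAH-2774, and 1319 CPM with lestaurtinib and 813 CPM with vehicle in OVSAHO. KRT19 averaged 183 CPM with lestaurtinib and 303 CPM with vehicle in MDAH-2774, and was near 5 CPM in OVSAHO (6.11 with lestaurtinib, 5.17 with vehicle), where CDH1 was at 39.2 CPM with lestaurtinib and 33.4 CPM with vehicle. In MDAH-2774 CDH1 was at 8.73 CPM with lestaurtinib and 6.67 CPM with vehicle. The sum of the 7 was 1919 to 1972 CPM in lestaurtinib and 2254 to 2498 CPM in vehicle MDAH-2774, and 2326 to 2455 CPM in lestaurtinib and 1508 to 1676 CPM in vehicle OVSAHO. Of 10 markers of blood cells, fibroblasts and endothelium, 4 (CD68, COL1A1, ACTA2 and CDH5) were measured. Their summed level was 28.7 to 32.8 CPM in lestaurtinib and 30.4 to 35.2 CPM in vehicle MDAH-2774, and 11.3 to 14.9 CPM in lestaurtinib and 15.1 to 17.4 CPM in vehicle OVSAHO. Within that sum the endothelial cadherin CDH5 was higher with lestaurtinib, at 12.9 CPM with lestaurtinib against 1.62 CPM with vehicle in MDAH-2774 and 1.56 CPM with lestaurtinib against 0.13 CPM with vehicle in OVSAHO. The macrophage marker CD68 was lower, at 9.55 CPM with lestaurtinib against 26.3 CPM with vehicle in MDAH-2774 and 10.6 CPM with lestaurtinib against 14.7 CPM with vehicle in OVSAHO. The part of these markers in the results below was not tested.

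With lestaurtinib, CDKN1A fell and CDK6 rose in both lines, CCND1 rose in OVSAHO and RB1 fell in MDAH-2774. In MDAH-2774, 3 of 10 genes passed the test, 1 higher and 2 lower, where 17.1% of all tested genes passed (8.08% higher, 9.05% lower). In OVSAHO, 3 of 9 measurable genes passed, 2 higher and 1 lower, where 15.7% of all tested genes passed (9.19% higher, 6.54% lower). CCND2 had no read in any OVSAHO library and is the gene left out there. The libraries of treated and vehicle cells did not overlap for 8 of 10 genes in MDAH-2774 (38.8% of all tested genes), 5 above (19.8%) and 3 below (18.9%), and for 4 of 9 in OVSAHO (30.5%), 2 above (15.5%) and 2 below (15.0%). The median log2 change over the genes was 0.07 in MDAH-2774 (all tested genes 0.01) and -0.01 in OVSAHO (all tested genes 0.00). The median size of change was 0.23 (all genes 0.18) and 0.22 (all genes 0.18). The number that passed in MDAH-2774 depended on the method: it was 6 with limma-voom and with that line fitted alone, which also called more of all genes (2956 and 3064, against 2312). It was 2 with limma on log2(RPKM + 0.1) and without any 1 of the lestaurtinib libraries or vehicle replicate 1 or 2 of that line.

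**Figure D1:**
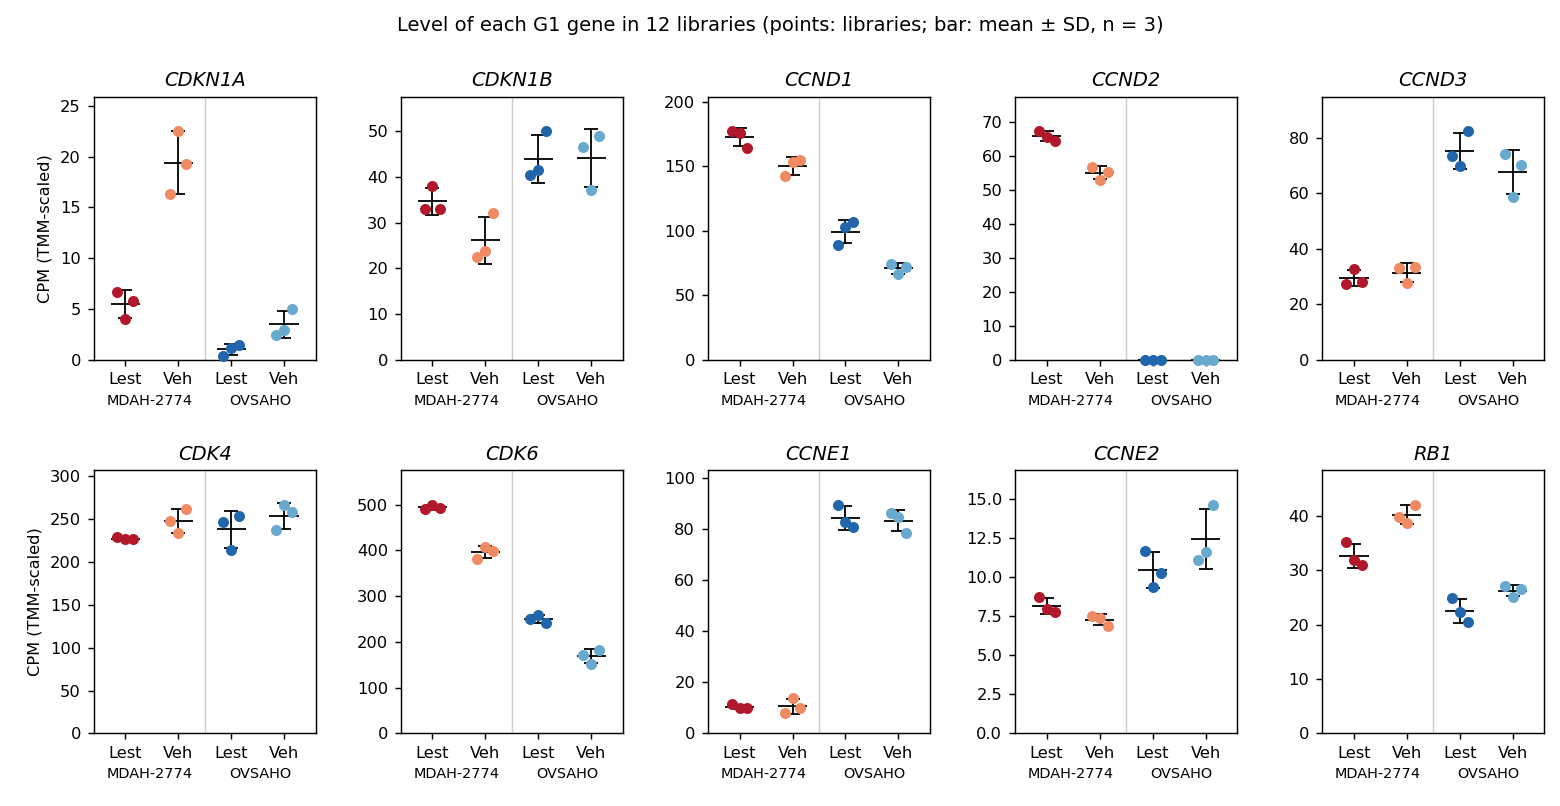
Level of each of the 10 genes in every library, in CPM on a linear axis from 0, by group (Lest, lestaurtinib, left of Veh, vehicle, within each line). Points are libraries and bars are the mean ± SD (n = 3). CDKN1A libraries with lestaurtinib lie below the vehicle libraries in both lines, CDK6 libraries lie above them, and CCND2 has 0 counts in all OVSAHO libraries.

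CDKN1A (chromosome 6, 36676460 to 36687339, plus strand, hg38) encodes p21. It had 6.64, 3.97 and 5.80 CPM in lestaurtinib MDAH-2774 libraries, against 16.4, 22.5 and 19.3 CPM in vehicle libraries. In OVSAHO it had 0.42, 1.20 and 1.44 CPM with lestaurtinib, against 2.45, 2.97 and 5.01 CPM with vehicle. The treated libraries were below every vehicle library in both lines. CDKN1A fell by 71.8% in MDAH-2774 (log2 change -1.82 ± 0.32 SE, edgeR adjusted p = 0.000783) and by 70% in OVSAHO (log2 change -1.74 ± 0.37 SE, edgeR adjusted p = 0.00364). The 95% interval ran from -2.51 to -1.14 in MDAH-2774 and from -2.51 to -0.96 in OVSAHO, and the difference between the responses was 0.09 ± 0.50 (95% interval -0.96 to 1.14). Of all tested genes, 1.93% changed by a larger amount than CDKN1A in MDAH-2774 and 2.54% in OVSAHO. The OVSAHO value rests on few reads, 13, 37 and 56 with lestaurtinib against 130, 122 and 190 with vehicle, and the log2 change there without 1 library at a time ran from -2.10 to -1.39. On the log2(RPKM + 1) scale, which shrinks changes at low levels, it was -0.71 (limma adjusted p = 0.0194).

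CDKN1B (chromosome 12, 12717270 to 12722383, plus strand) encodes p27. In MDAH-2774 it had 33.1, 38.1 and 32.98 CPM with lestaurtinib, against 22.4, 23.8 and 32.1 CPM with vehicle. The treated libraries were above the vehicle libraries by a small margin, because 1 vehicle library, replicate 3, lay near them. The log2 change was 0.41 ± 0.14 SE (95% interval 0.12 to 0.70) and did not pass the test (edgeR adjusted p = 0.0518). It passed in 12 of 22 alternative analyses, among them the fits without vehicle replicate 3 (log2 change 0.59, adjusted p = 0.00712), without OVSAHO lestaurtinib replicate 3 (adjusted p = 0.0429) and without OVSAHO vehicle replicate 2 (adjusted p = 0.0387) or 3 (adjusted p = 0.0493). With the replicate number as a block it also passed (adjusted p = 0.0357). In OVSAHO it averaged 44.0 ± 5.28 CPM with lestaurtinib and 44.2 ± 6.29 CPM with vehicle (SD, n = 3 each), and those libraries overlapped (log2 change -0.01, 95% interval -0.30 to 0.29). The responses differed by -0.41 ± 0.20 between lines, which did not pass (edgeR adjusted p = 0.165) and passed without vehicle MDAH-2774 replicate 3 (-0.59, adjusted p = 0.0336).

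Per length, the balance between the CDK inhibitor transcripts was different with and without the compound, while their sum moved little. CDKN1A made up 13.2 ± 3.68% of the summed CDKN1A and CDKN1B RPKM in lestaurtinib MDAH-2774 and 41.7 ± 5.50% in vehicle MDAH-2774 (SD, n = 3 each). In OVSAHO it made up 2.12 ± 0.98% with lestaurtinib and 6.94 ± 2.06% with vehicle. The sum of both genes was 17.1 ± 0.83 RPKM with lestaurtinib and 18.6 ± 2.697 RPKM with vehicle in MDAH-2774, and 16.6 ± 2.07 RPKM with lestaurtinib and 17.8 ± 2.72 RPKM with vehicle in OVSAHO. In both lines these sums differed by less than the SD of the vehicle libraries.

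The D-type cyclins are the regulatory subunits of CDK4 and CDK6. CCND1 (chromosome 11, 69641105 to 69654474, plus strand) had 89.1, 103 and 107 CPM in lestaurtinib OVSAHO libraries, against 74.3, 66.4 and 72.0 CPM in vehicle libraries. It rose 1.40-fold there (log2 change 0.49 ± 0.07 SE, edgeR adjusted p = 0.000153), with all treated libraries above all vehicle libraries. In MDAH-2774 it had 177, 175 and 164 CPM with lestaurtinib, against 142, 153 and 155 CPM with vehicle. These libraries did not overlap either, but the log2 change of 0.20 ± 0.07 SE did not pass (edgeR adjusted p = 0.0626), and it passed in 5 of 22 alternatives, among them limma-voom (adjusted p = 0.018) and the fit without OVSAHO lestaurtinib replicate 1 (adjusted p = 0.0363). The response was 0.29 ± 0.10 higher in OVSAHO than in MDAH-2774, which did not pass (edgeR adjusted p = 0.0588). It passed with DESeq2 (adjusted p = 0.0287), limma-voom (adjusted p = 0.0479) and RLE scaling (adjusted p = 0.0476), and without MDAH-2774 vehicle replicate 1 (adjusted p = 0.0408) or OVSAHO lestaurtinib replicate 1 (adjusted p = 0.0158).

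CCND2 (chromosome 12, 4273733 to 4305356, plus strand) was measured in 1 line only. It had 67.2, 65.6 and 64.3 CPM in lestaurtinib MDAH-2774 libraries, against 56.7, 52.9 and 55.3 CPM in vehicle libraries. These did not overlap, and the log2 change of 0.26 ± 0.09 SE did not pass (edgeR adjusted p = 0.0808) but passed with limma-voom (adjusted p = 0.00535), limma on log2(RPKM + 1) (adjusted p = 0.0132) and that line alone (adjusted p = 0.0114). All 6 OVSAHO libraries had 0 counts, which allows at most 0.098 CPM with lestaurtinib and 0.079 CPM with vehicle (3 counts in a library, counting error only). CCND3 (chromosome 6, 41934933 to 42048894, minus strand) averaged 29.4 ± 2.90 CPM with lestaurtinib and 31.5 ± 3.35 CPM with vehicle in MDAH-2774, and 75.2 ± 6.56 CPM with lestaurtinib and 67.8 ± 8.04 CPM with vehicle in OVSAHO. The libraries overlapped in both lines. The 95% interval of its log2 change ran from -0.33 to 0.14 in MDAH-2774 and from -0.08 to 0.38 in OVSAHO.

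Per length, CCND1 was the main D-type cyclin transcript in MDAH-2774, and CCND3 together with CCND1 made up the total in OVSAHO. CCND1 held 66.6 ± 1.00% of the summed D-cyclin RPKM in lestaurtinib and 64.7 ± 2.37% in vehicle MDAH-2774 libraries, while CCND2 held 17.1 ± 0.46% with lestaurtinib and 15.9 ± 0.69% with vehicle. CCND3 held 16.3 ± 1.31% with lestaurtinib and 19.4 ± 1.86% with vehicle in that line. In OVSAHO, CCND1 held 48.0 ± 2.44% with lestaurtinib and 42.3 ± 1.57% with vehicle, and CCND3 held the rest. The summed D-cyclin level was 61.8 ± 2.77 RPKM with lestaurtinib and 53.7 ± 1.67 RPKM with vehicle in MDAH-2774, and 42.4 ± 3.23 RPKM with lestaurtinib and 35.0 ± 3.43 RPKM with vehicle in OVSAHO. These sums are given as a description, without a test.

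**Figure D2:**
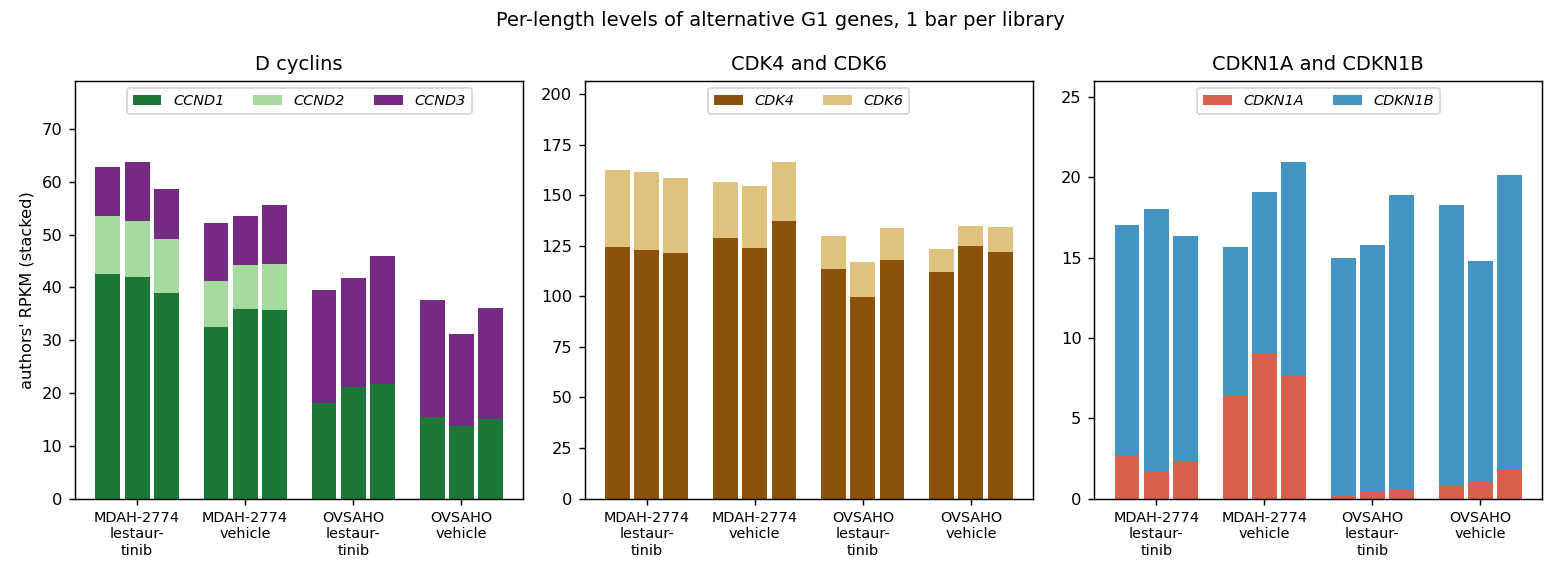
Authors' RPKM of the D-type cyclins, of CDK4 and CDK6, and of CDKN1A and CDKN1B, stacked with 1 bar per library, lestaurtinib left of vehicle in each line. CCND2 is missing from all OVSAHO bars, CDK6 is a larger part of its bar with lestaurtinib, and CDKN1A is a smaller part of its bar with lestaurtinib.

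Of the kinase partners of the D cyclins, CDK6 rose in both lines and CDK4 passed the test in neither. CDK6 (chromosome 7, 92604921 to 92836627, minus strand) had 490, 500 and 493 CPM in lestaurtinib MDAH-2774 libraries, against 382, 408 and 399 CPM in vehicle libraries. In OVSAHO it had 250, 259 and 242 CPM with lestaurtinib, against 172, 152 and 183 CPM with vehicle. Treated libraries were above vehicle libraries in both lines. CDK6 rose 1.25-fold in MDAH-2774 (log2 change 0.32 ± 0.06 SE, edgeR adjusted p = 0.00106) and 1.48-fold in OVSAHO (log2 change 0.56 ± 0.06 SE, edgeR adjusted p = 4.31e-06). The response was 0.24 ± 0.08 higher in OVSAHO, which did not pass (edgeR adjusted p = 0.053). It passed with DESeq2 (adjusted p = 0.0134), limma-voom (adjusted p = 0.029) and RLE scaling (adjusted p = 0.0396), and without MDAH-2774 vehicle replicate 1 (adjusted p = 0.0414) or OVSAHO vehicle replicate 3 (adjusted p = 0.0255).

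CDK4 (chromosome 12, 57747727 to 57752447, minus strand) had 229, 227 and 227 CPM in lestaurtinib MDAH-2774 libraries, against 249, 234 and 262 CPM in vehicle libraries. It averaged 238 ± 21.5 CPM with lestaurtinib and 254 ± 15.3 CPM with vehicle in OVSAHO. The libraries did not overlap in MDAH-2774 and overlapped in OVSAHO. Neither change passed: the log2 change was -0.13 ± 0.07 SE in MDAH-2774 (95% interval -0.27 to 0.01, edgeR adjusted p = 0.22) and -0.09 ± 0.07 SE in OVSAHO (95% interval -0.23 to 0.05, edgeR adjusted p = 0.375). CDK4 was the most abundant of the 10 transcripts per length in all 4 groups, and CDK6 was 23.5 ± 0.26% of the summed CDK4 and CDK6 RPKM in lestaurtinib and 18.4 ± 1.15% in vehicle MDAH-2774. In OVSAHO it was 13.0 ± 1.44% with lestaurtinib and 8.63 ± 1.02% with vehicle. The sum itself was 161 ± 2.01 RPKM with lestaurtinib and 159 ± 6.36 RPKM with vehicle in MDAH-2774, and 127 ± 8.85 RPKM with lestaurtinib and 131 ± 6.36 RPKM with vehicle in OVSAHO, which is within 1 SD of the vehicle libraries. These per-length values rest on listed exon lengths of 14142 bases for CDK6 and 2002 for CDK4. In CPM, CDK6 was above CDK4 in MDAH-2774 (494 against 228 with lestaurtinib, 396 against 248 with vehicle). In OVSAHO, CDK6 against CDK4 was 250 against 238 CPM with lestaurtinib and 169 against 254 CPM with vehicle. In the annotation, exons of TSPAN31 on the opposite strand cover 1078 bases of the CDK4 exons, and with no strand setting of the counting in the sources, reads of the pair cannot be told apart there. TSPAN31 itself did not pass (log2 change 0.18 in MDAH-2774 and -0.09 in OVSAHO). Smaller overlaps on the opposite strand lie at CCND1 (497 bases of LTO1) and CDKN1A (238 bases of DINOL), and AC008012.1 shares 999 exon bases with CCND2 on the same strand.

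The RefSeq promoter sequences (GRCh38.p14, 250 bases before to 50 after the listed start) are printed for CDKN1A and CDK6, the pair of genes that changed in both lines in opposite directions, and for CDK4, the partner of CDK6 that did not pass. Capitals mark the GC box (GGGCGG or its complement CCGCCC, the letters of SP-factor sites) in the CDKN1A and CDK6 sequences, and the E box CACGTG, the letters bound by MYC and related factors, in the CDK4 sequence.
CDKN1A promoter, chr6:36678464-36678763, plus strand: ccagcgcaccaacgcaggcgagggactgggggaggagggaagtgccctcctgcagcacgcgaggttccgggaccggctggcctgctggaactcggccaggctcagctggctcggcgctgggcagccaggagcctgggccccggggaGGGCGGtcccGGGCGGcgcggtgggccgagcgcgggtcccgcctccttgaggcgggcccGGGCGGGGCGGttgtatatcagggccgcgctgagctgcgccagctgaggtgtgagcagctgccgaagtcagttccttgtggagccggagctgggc
CDK6 promoter, chr7:92836524-92836823, minus strand: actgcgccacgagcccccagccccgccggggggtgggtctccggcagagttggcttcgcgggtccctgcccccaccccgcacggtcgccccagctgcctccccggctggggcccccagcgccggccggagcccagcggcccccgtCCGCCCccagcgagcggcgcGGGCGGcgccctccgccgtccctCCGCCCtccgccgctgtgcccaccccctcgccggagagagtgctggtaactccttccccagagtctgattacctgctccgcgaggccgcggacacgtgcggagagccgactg
CDK4 promoter, chr12:57752261-57752560, minus strand: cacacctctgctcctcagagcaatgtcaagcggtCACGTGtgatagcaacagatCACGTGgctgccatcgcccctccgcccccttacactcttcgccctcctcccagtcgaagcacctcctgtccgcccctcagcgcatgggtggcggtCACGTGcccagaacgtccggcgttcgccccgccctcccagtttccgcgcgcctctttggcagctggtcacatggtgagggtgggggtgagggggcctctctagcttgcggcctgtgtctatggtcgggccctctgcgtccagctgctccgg
The CDKN1A window held 4 GC boxes, of which the last 2 overlap by 1 base, and the CDK6 window held 3 GC boxes. Of 35116 promoters of the same length, 45% held at least 1 GC box and 15.8% at least 3. The CDK4 window held 3 E boxes besides 3 GC boxes, against 7.26% of promoters with at least 1 E box and 33 promoters (0.094%) with at least 3. CDK6 also had 1 E box, and CCNE1 had 7 GC boxes. Both strands were searched, and 7 of the 10 genes had an entry (not CCND1, CCND2 and CCNE2). The only RB1 entry starts 172703 bases inside the gene, so the start of RB1 was not searched, and 2 of 3 CCND3 entries also start inside the gene. The only CDKN1A entry, printed above, starts 2254 bases inside the gene span given for CDKN1A, so the start of that span was not searched. Another CDK6 entry, 2668 bases inside the gene, held 0 GC boxes and 0 E boxes. No entry of the 6 genes other than RB1 held the cyclic AMP response element TGACGTCA, the AP-1 letters TGACTCA, the E2F letters TTTCCCGC or TATAAA, which 1.85%, 4.95%, 1.63% and 11.5% of all promoters held. A match is a run of letters and not a bound site.

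The E-type cyclins, which activate CDK2 at the end of G1, passed the test in neither line. CCNE1 (chromosome 19, 29811898 to 29824312, plus strand) had 11.4, 9.85 and 10.1 CPM in lestaurtinib MDAH-2774 libraries, against 8.13, 13.8 and 10.0 CPM in vehicle libraries. In OVSAHO it had 89.7, 82.8 and 81.0 CPM with lestaurtinib, against 86.6, 84.8 and 78.6 CPM with vehicle. The treated and vehicle libraries overlapped in both lines, and the 95% interval of the log2 change ran from -0.32 to 0.27 in MDAH-2774 and from -0.25 to 0.29 in OVSAHO. CCNE2 (chromosome 8, 94880224 to 94896653, minus strand) averaged 8.16 ± 0.50 CPM with lestaurtinib and 7.28 ± 0.34 CPM with vehicle in MDAH-2774, and 10.5 ± 1.17 CPM with lestaurtinib and 12.5 ± 1.91 CPM with vehicle in OVSAHO. The CCNE2 libraries lay apart in MDAH-2774 and overlapped in OVSAHO, with log2 changes of 0.16 ± 0.17 SE (edgeR adjusted p = 0.573) and -0.25 ± 0.17 SE (edgeR adjusted p = 0.34). Exons of INTS8 on the opposite strand cover 1522 of the 3153 exon bases of CCNE2, so reads of this pair cannot be told apart there either. The limit weighs more on the low CCNE2 counts than on CDK4. INTS8 averaged 40.6 CPM over the 12 libraries, above CCNE2, while TSPAN31 averaged 17.6 CPM, below CDK4. INTS8 did not pass (log2 change -0.11 in MDAH-2774 and -0.15 in OVSAHO).

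RB1 (chromosome 13, 48303747 to 48481890, plus strand), the pocket protein phosphorylated by these kinases, had 35.2, 31.9 and 31.0 CPM in lestaurtinib MDAH-2774 libraries, against 39.9, 38.7 and 42.1 CPM in vehicle libraries. In OVSAHO it had 24.9, 22.3 and 20.5 CPM with lestaurtinib, against 27.1, 25.1 and 26.5 CPM with vehicle. The treated libraries were below the vehicle libraries in both lines. RB1 fell to 0.81-fold in MDAH-2774 (log2 change -0.30 ± 0.10 SE, edgeR adjusted p = 0.0419), while the OVSAHO change of -0.22 ± 0.10 SE did not pass (edgeR adjusted p = 0.153). The responses differed by 0.08 ± 0.14 (edgeR adjusted p = 0.752). The MDAH-2774 call is at the edge of the test: it was lost in 9 of 22 alternatives, without any 1 of the 6 libraries of that line (adjusted p from 0.0536 to 0.155), with upper-quartile scaling (adjusted p = 0.0672) and with limma on log2(RPKM + 1) (adjusted p = 0.0606) or log2(RPKM + 0.1) (adjusted p = 0.0786).

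**Figure D3:**
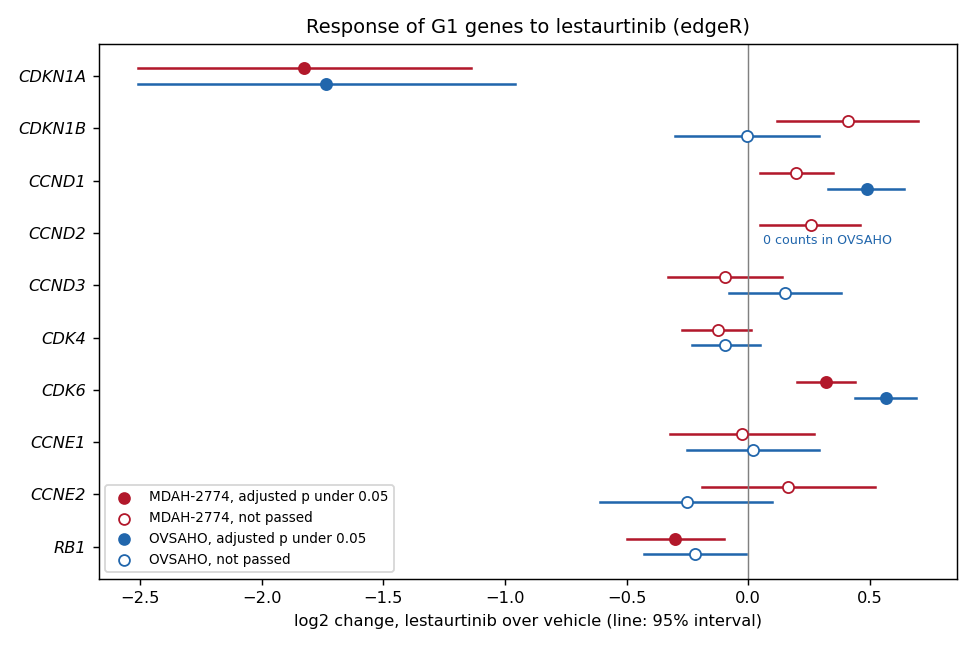
Log2 change, lestaurtinib minus vehicle, of each gene in MDAH-2774 and OVSAHO with its 95% interval from the edgeR fit; filled symbols passed an adjusted p under 0.05. CDKN1A lies near -1.8 in both lines, CDK6 lies above 0 in both, and the intervals of CCND3, CDK4, CCNE1 and CCNE2 include 0.

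The test of the difference between the responses of the lines called none of the 9 genes measurable in both. Of all tested genes, 16.8% passed (9.22% with a higher response in OVSAHO, 7.59% with a lower one). An unadjusted p under 0.05 was reached by 3 of the 9 genes (CDKN1B, CCND1 and CDK6) and by 29.9% of all tested genes. DESeq2 and limma-voom each called 2 of them, and limma on either RPKM scale called 0. The 9 genes had a median difference of 0.08 (all genes -0.01) and a median size of 0.25 (all genes 0.26). For RB1, called in MDAH-2774 alone, no fit called a difference, and for CCND1, called in OVSAHO alone, the difference passed in 5 of 21 alternatives.

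Under vehicle the lines differed in 9 of 10 genes, 4 higher and 5 lower in OVSAHO, where 77.4% of all tested genes passed (38.6% higher, 38.9% lower), so this share is close to that of all genes. The libraries of the lines did not overlap for 9 of the 10 genes, all but CDK4, against 77.5% of all tested genes. These values come from the same vehicle libraries as the drug comparisons above. CCNE1 averaged 83.3 ± 4.17 CPM in OVSAHO and 10.7 ± 2.89 CPM in MDAH-2774 (SD, n = 3 each), a 7.85-fold higher level (log2 difference 2.97 ± 0.14 SE, edgeR adjusted p = 3.17e-12). CCND3 was also higher in OVSAHO (log2 difference 1.11 ± 0.11 SE, edgeR adjusted p = 6.38e-08), as were CCNE2 (0.77 ± 0.17, edgeR adjusted p = 0.000463) and CDKN1B (0.76 ± 0.14, edgeR adjusted p = 9.08e-05). Reads of INTS8 may enter the CCNE2 value, as described above. CCND2 was at least 695-fold lower in OVSAHO under vehicle, taking 3 counts in each OVSAHO library as the bound, and at least 674-fold lower with lestaurtinib. CDKN1A (log2 difference -2.49 ± 0.33 SE), CDK6 (-1.23 ± 0.06), CCND1 (-1.08 ± 0.07) and RB1 (-0.62 ± 0.10) were lower in OVSAHO, with edgeR adjusted p-values of 2.82e-06, 4.43e-12, 3.03e-10 and 1.86e-05. CDK4 did not pass (0.03 ± 0.07, 95% interval -0.11 to 0.17, edgeR adjusted p = 0.659). By RPKM, CDK4 was followed by CCND1 and then CDK6 in both MDAH-2774 groups and by CCNE1 in both OVSAHO groups, with ranges apart. In MDAH-2774 CDKN1A had the lowest mean of the 10 genes with lestaurtinib, where its range overlapped that of CCNE2, while under vehicle CCNE2 was lowest. In OVSAHO the lowest were CDKN1A and, at 0, CCND2. The summed CCNE1 and CCNE2 level was 41.4 ± 2.23 RPKM in lestaurtinib OVSAHO, 42.1 ± 1.29 RPKM in vehicle OVSAHO, 8.31 ± 0.66 RPKM in lestaurtinib MDAH-2774 and 7.88 ± 1.57 RPKM in vehicle MDAH-2774.

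Other genes of the pathway were followed in lists of known roles, which were chosen with earlier results of these data known. As a reference for the counts, 17.1% of all tested genes passed in MDAH-2774 (8.08% higher, 9.05% lower). In OVSAHO the share was 15.7% (9.19% higher, 6.54% lower), and for the difference between lines it was 16.8%. Among 5 other CDK inhibitors (CDKN1C, CDKN2A, CDKN2B, CDKN2C and CDKN2D), none passed in either line with edgeR, with 1 at an unadjusted p under 0.05 in each line, and limma-voom called 1 in OVSAHO while DESeq2 and limma on either RPKM scale called 0 in both lines. CDKN2C, an inhibitor of CDK4 and CDK6, averaged 131 CPM in lestaurtinib and 163 CPM in vehicle OVSAHO libraries, and 8.15 CPM in lestaurtinib and 9.16 CPM in vehicle MDAH-2774 libraries. Of 7 genes for CDK2, cyclin A2 and CDK-activating factors, 2 fell in MDAH-2774: CDK2, the partner of E-type cyclins, by 0.37 and CCNA2, the S phase cyclin, by 0.51 on the log2 scale (edgeR adjusted p = 0.00158 and 0.000886). In OVSAHO neither passed (log2 change 0.15 and -0.06), while 1 other gene of this list, CDC37, a chaperone partner of CDK4, rose by 0.20 (edgeR adjusted p = 0.0446, lost in 14 of 22 alternatives, the replicate block among them, adjusted p = 0.0708). The CDC37 call was lost without any 1 MDAH-2774 lestaurtinib library or vehicle replicate 2, and without OVSAHO lestaurtinib replicate 2 or 3 or vehicle replicate 2 or 3. The difference between lines passed for CDK2 (0.53 ± 0.10, edgeR adjusted p = 0.00208) and for CCNA2 (0.44 ± 0.13, edgeR adjusted p = 0.026), and the CCNA2 call was lost in 12 of 21 alternatives.

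The pocket proteins other than RB1, the E2F factors and their DP partners gave 12 genes, of which 5 fell and 7 did not pass in MDAH-2774, and 2 rose and 2 fell in OVSAHO. Among all tested genes, 9.05% passed as lower in MDAH-2774, and 9.19% as higher and 6.54% as lower in OVSAHO. E2F1, an activating E2F, fell by 0.37 in MDAH-2774 and rose by 0.31 in OVSAHO on the log2 scale (edgeR adjusted p = 0.00206 and 0.00804), and the difference of 0.68 passed (edgeR adjusted p = 0.000269). E2F2 fell by 0.42 on the log2 scale in OVSAHO (edgeR adjusted p = 0.00839), and the other rise there, of E2F4 by 0.23, was lost in 8 of 22 alternatives, among them the fits without any 1 lestaurtinib library or vehicle replicate 1 or 3 of that line. The E2F1 calls held in every alternative run. The other falls in MDAH-2774 (E2F2, E2F4, RBL1 and E2F7) were near the threshold, and the count of 5 was 1 with the replicate block, with upper-quartile scaling, on either RPKM scale, and without MDAH-2774 lestaurtinib replicate 2 or 3 or vehicle replicate 2. The 2 falls in OVSAHO were 4 without its lestaurtinib replicate 2, and 1 without its lestaurtinib replicate 3 or on the log2(RPKM + 0.1) scale. The count of falls in MDAH-2774 was 2 without lestaurtinib replicate 1 of that line and 3 without its vehicle replicate 1 or 3, OVSAHO lestaurtinib replicate 3 or OVSAHO vehicle replicate 1. Rises in MDAH-2774, 0 in the main fit, were 3 on either RPKM scale and 2 with limma-voom, that line alone or upper-quartile scaling. They were 1 without MDAH-2774 vehicle replicate 3 or OVSAHO vehicle replicate 1 or 3. The direction of this list in MDAH-2774 therefore depended on the method.

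Of 20 E2F target genes of the G1 to S transition, 12 fell and 8 did not pass in MDAH-2774 with lestaurtinib (median log2 change -0.24), and 1 fell and 1 rose in OVSAHO (median 0.08). Over all tested genes, 9.05% passed as lower in MDAH-2774, and 6.54% as lower and 9.19% as higher in OVSAHO. The replication helicase subunit MCM7 fell by 0.33 on the log2 scale, the origin recognition gene ORC1 by 0.60, the sliding clamp PCNA by 0.36 and the helicase subunit MCM5 by 0.57 in MDAH-2774 (edgeR adjusted p = 3.35e-05, 7.86e-05, 0.000333 and 0.00039). In OVSAHO the log2 changes of MCM7, ORC1 and PCNA were 0.07, -0.01 and -0.04, and none of these passed. The 1 rise in OVSAHO (MCM5) was lost with the replicate block (adjusted p = 0.0614), with upper-quartile scaling, on either RPKM scale, without any 1 MDAH-2774 lestaurtinib library and without OVSAHO lestaurtinib replicate 2 or 3 or vehicle replicate 2 or 3, and the 1 fall (RRM1) without OVSAHO lestaurtinib replicate 3 or vehicle replicate 2. The difference between the responses of the lines passed for 11 of the 20 genes, all with a higher response in OVSAHO. It passed for 7 of them with upper-quartile scaling or without OVSAHO vehicle replicate 3. This is a difference of changes and not of levels. The difference of responses passed for 16.8% of all tested genes (9.22% with a higher response in OVSAHO, 7.59% with a lower one). Of 8 proliferation markers, 6 fell in MDAH-2774 (median -0.38), among them AURKB by 0.59, BUB1 by 0.49 and CCNB1 by 0.44 on the log2 scale (edgeR adjusted p = 3.43e-06, 2.4e-05 and 4.4e-05), and 3 rose in OVSAHO (median 0.13). The 3 rises were 1 without OVSAHO lestaurtinib replicate 1 or vehicle replicate 1 or 3. The difference of responses passed for 6 of the 8 genes, all with a higher response in OVSAHO, where 9.22% of all tested genes passed as higher.

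**Figure D4:**
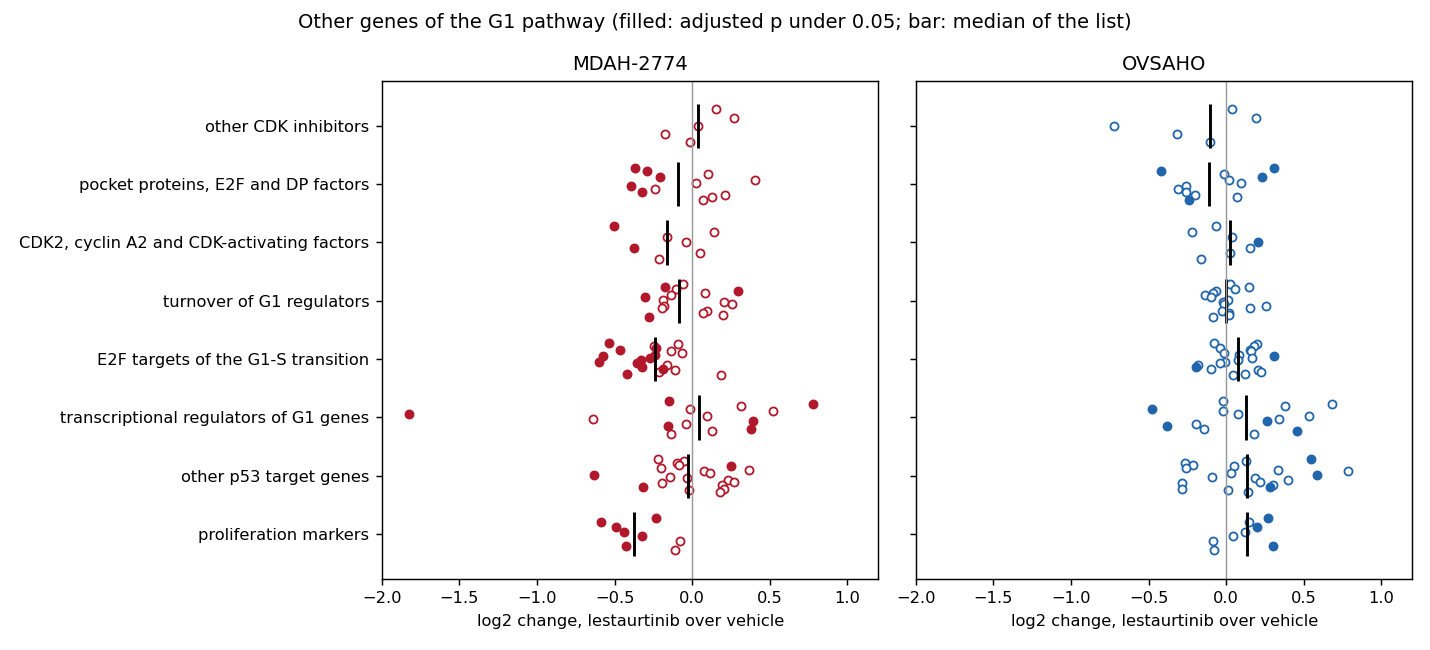
Log2 change with lestaurtinib of every gene in each list of G1 pathway genes, in MDAH-2774 and OVSAHO; points are genes (filled where the adjusted p is under 0.05) and vertical bars are list medians. The E2F targets have a median of -0.24 in MDAH-2774 and 0.08 in OVSAHO, and the proliferation markers -0.38 in MDAH-2774 and 0.13 in OVSAHO.

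Of 16 genes for the turnover of G1 regulators, 1 rose and 3 fell in MDAH-2774 and none passed in OVSAHO with edgeR (2 at an unadjusted p under 0.05, 1 each called by DESeq2 and limma-voom, 2 by limma on either RPKM scale). The edgeR shares over all tested genes were 17.1% in MDAH-2774 (8.08% higher, 9.05% lower) and 15.7% in OVSAHO. CUL4A, a scaffold of ubiquitin ligases that act on p21 and p27, rose by 0.30 on the log2 scale in MDAH-2774 (edgeR adjusted p = 0.00146). DTL, the substrate receptor of such a ligase, fell by 0.31 (edgeR adjusted p = 0.0152). The count of 3 falls was 1 with upper-quartile scaling and without MDAH-2774 lestaurtinib replicate 2 or 3, and 0 without lestaurtinib replicate 1.

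Of 14 transcriptional regulators of G1 genes, 3 rose and 3 fell in MDAH-2774, and 2 rose and 2 fell in OVSAHO. For all tested genes the shares were 8.08% higher and 9.05% lower in MDAH-2774, and 9.19% higher and 6.54% lower in OVSAHO. JUN, an AP-1 subunit known to activate CCND1, fell by 1.82 on the log2 scale in MDAH-2774 (edgeR adjusted p = 2.91e-07) and was at 0.08 in OVSAHO (edgeR adjusted p = 0.759), with a difference of 1.90 that passed (edgeR adjusted p = 5.98e-06). MYC, which is known to repress CDKN1A and to activate CDK4, rose by 0.39 in MDAH-2774 (edgeR adjusted p = 0.000959) and by 0.26 in OVSAHO (edgeR adjusted p = 0.0209, lost in 7 of 22 alternatives, among them the fits without OVSAHO lestaurtinib replicate 2 or 3 or any 1 of its vehicle libraries). FOXO3, an activator of CDKN1B, fell by 0.48 in OVSAHO (edgeR adjusted p = 0.000648) and was at -0.01 in MDAH-2774. STAT3 fell by 0.38 in OVSAHO (edgeR adjusted p = 5.76e-05). It was also called lower in MDAH-2774, a call lost in several alternatives, among them the replicate block (log2 change -0.16, edgeR adjusted p = 0.0609). The STAT3 difference between lines was called as well. It was lost with the replicate block (-0.22, edgeR adjusted p = 0.0701), with RLE scaling (edgeR adjusted p = 0.0538) and without several single libraries. These were any 1 MDAH-2774 lestaurtinib library, MDAH-2774 vehicle replicate 2 or 3, OVSAHO lestaurtinib replicate 1 or 3, and OVSAHO vehicle replicate 1. The counts in MDAH-2774 ranged from 1 to 4 in each direction over the alternatives: the rises were 1 without any 1 of the lestaurtinib libraries or vehicle replicate 2, and the falls were 1 without lestaurtinib replicate 1 or 2 or vehicle replicate 1. The falls were also 1 with the replicate block. The 2 rises in OVSAHO were 0 without its vehicle replicate 3 and 1 without any other single library of that line.

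CDKN1A is a p53 target, and 20 other p53 target genes were followed beside it. In MDAH-2774, 1 rose and 2 fell (median log2 change -0.03), and in OVSAHO, 3 rose and 17 did not pass (median 0.13). With 17.1% of all tested genes passing in MDAH-2774 and 15.7% in OVSAHO, these counts are close to the shares of all genes. TNFRSF10B, a death receptor, fell by 0.32 in MDAH-2774 and rose by 0.28 in OVSAHO on the log2 scale (edgeR adjusted p = 0.00036 and 0.00127). AEN, an apoptosis-enhancing nuclease, rose by 0.54 in OVSAHO (edgeR adjusted p = 0.00155), and CCNG1, cyclin G1, rose by 0.25 in MDAH-2774 (edgeR adjusted p = 0.00758). The 2 falls in MDAH-2774 were 1 without any 1 of its lestaurtinib libraries or its vehicle replicate 2 or 3.

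Likeness was measured as Pearson's r of log2 CPM over the 12 libraries after centring each line on its own mean, among 10075 genes with at least 5 CPM on average. Clone, LINC, antisense, readthrough, pseudogene and small-RNA symbols were left out. The values describe these libraries, which share the treatment contrast, and carry no test. The genes most like CDKN1A were MTMR14 (r = 0.951), HSPA12A (0.949) and MGAT5 (0.944), and those most like CDK6 were PDE4D (0.983), AVPI1 (0.98) and TMED10 (0.973). An r does not measure the size of a change. MTMR14 (log2 change -0.23 in MDAH-2774, -0.21 in OVSAHO) and HSPA12A (-0.3 in both) passed in neither line, while MGAT5 passed in both (-0.43 and -0.48). CCND1 was most like NAPRT (0.983), CHPF (0.979) and LSS (0.978), and RB1 was most like HLTF (0.954), FBXO3 (0.94) and ENAH (0.928).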

How the data were processed

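RNA sequencing libraries (3 per group, 4 groups) were grouped by their titles. RNA came from a miRNeasy kit and libraries from a TruSeq stranded mRNA kit, per the labels' protocols. Alignment and counting tools listed in the submitters' processing notes are STAR 2.7.3a and featureCounts 2.8.2, with hg38. The authors deposited read counts per gene, whole numbers without normalization, and the authors' RPKM values, scaled by gene length and library. Each listed gene has an RPKM above 1 in at least 1 library, and lower genes were not analysed here. The members, the pathway lists, the tests and the naming rules were chosen with earlier results of these data known.

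Counts were tested in 1 fit of 12 libraries with edgeR 4.0.16 (glmQLFit, glmQLFTest, TMM scaling, 1 term per group, no block; R 4.3.3). With filterByExpr at a minimum count of 10, 13498 genes stayed and 371 were left out. The SE is the log2 change divided by the square root of its F value. Within each list, the 4 smallest adjusted p-values among genes of at least 1 CPM were eligible to be named, together with 3 genes of highest likeness for each of 4 members. Others named were chosen after their values were seen. Alternatives were RLE and upper-quartile scaling, no filter or a minimum count of 50, DESeq2 1.42.0, limma 3.58.1 (voom, log2(RPKM + 1), log2(RPKM + 0.1)), a block for the replicate number, fits of 1 line, and fits without 1 library. No pair of replicates agreed within sampling noise, so all were counted. The test was tried on simulated counts of 13498 genes, with 100 genes changed at each fold size. The data called more genes than that (2312 in MDAH-2774 and 2124 in OVSAHO), so the recovery rates need not hold for the data. In the simulated counts the test recovered 61% of 1.5-fold changes in each line. Of 2-fold changes it recovered 77% in MDAH-2774 and 80% in OVSAHO, so a gene that did not pass may still have changed. Gene coordinates are those of the deposited table (hg38). Overlapping exons of other genes were found in GENCODE 29, and the promoter windows are RefSeq (GRCh38.p14). Tables and plots used Python 3.11.15 (pandas 2.3.3, numpy 2.4.6, matplotlib 3.10.9).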

Additional observations from a re-analysis of the deposited data

How the results depend on the processing

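CDKN1A and CDK6 in both lines and CCND1 in OVSAHO passed in all 22 alternatives. CDKN1A ranged from -1.99 to -1.43 in MDAH-2774 and from -2.10 to -0.71 in OVSAHO, the smallest on the log2(RPKM + 1) scale, which shrinks low genes. The number of members called in MDAH-2774 (3) was 5 with limma on log2(RPKM + 1), 6 with limma-voom and 6 with the line alone. The number for the difference (0) was 2 with DESeq2, 2 with limma-voom, 2 with RLE scaling and 0 to 2 without 1 library. Genes called in MDAH-2774 (2312) ran from 1463 to 2462 without 1 library, 1499 without lestaurtinib replicate 1 and 1463 without lestaurtinib replicate 2. The CDH5 difference of 0.70 reversed to -1.24 with limma on log2(RPKM + 1), where a level near 0 is held at the pseudocount. The share of calls that were higher was 47.1% in MDAH-2774 and 60.6% on the log2(RPKM + 0.1) scale, 58.4% in OVSAHO and 46% with upper-quartile scaling, and 54.9% for the difference and 39.5% there with upper-quartile scaling. Scaling moved the median of all genes by at most 0.07 (log2), downward, in the difference with upper-quartile scaling. With the replicate number as a block, 4 members were called in MDAH-2774 and 3 in OVSAHO (2000 and 1795 genes), and 0 for the difference. Same-numbered libraries of treated and vehicle cells correlated at -0.06 to 0.006, and differently numbered ones at -0.048 to 0.065, after centring on each group of 3. With so few libraries per group these values cannot decide whether the samples were set up as pairs, so pairing is not known. Depth limits CDKN1A in OVSAHO and CCND2, which was below the limit that 3 counts allow.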
